A study of Mus musculus with 56 samples.

Results

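The genes described are 9 of the epithelial alarmin and interleukin-13 (IL-13) axis, among 18194 genes named on the array: the alarmins Il33, Tslp and Il25, the cytokine Il13, the receptors Il4ra, Il13ra1, Il13ra2 and Il1rl1, and the effector Retnlb. They were listed by name, and in each tissue a gene was represented by the probe set, annotated to that gene alone, with the highest mean signal. In the annotation used here no probe set names Il1rl1, the receptor of IL-33, alone or with other genes, so that 8 genes had values and Il1rl1 was not analysed here. RNA came from whole colon and whole jejunum of BALB/C mice, and each array held a different mouse. Wild type mice (WT) were compared with knockout mice (KO) lacking Tweak, a cytokine of the tumour necrosis factor family encoded by Tnfsf12, at 0, 6 and 24 h after 3 Gy of ionizing radiation. The labels name no other allele or agent for any group, and from them it is not clear if mice of the 0 h groups received the dose. At 0, 6 and 24 h there were 5, 4 and 4 WT and 5, 5 and 5 KO arrays of colon. Jejunum had 5, 5 and 4 of WT and 5, 4 and 5 of KO, and these small numbers limit the precision.

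Alarmins are cytokines that barrier cells release on damage or infection. IL-33, TSLP and IL-25 act on group 2 innate lymphoid cells and T helper 2 cells, which answer with IL-13. In the gut, IL-25 comes from tuft cells. IL-13 signals through a receptor made of the IL-4 receptor alpha chain (Il4ra) and Il13ra1, while Il13ra2 binds IL-13 as a decoy. Through the transcription factor STAT6 it drives goblet cells to make Retnlb, a secreted antibacterial and antihelminth protein.

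The promoters of Il33 are shown because it is the gene whose signal varied most between arrays of jejunum. Windows of 6 of the 9 genes were used from the RefSeq promoter table for GRCm38.p6. Tslp, Il25 and Retnlb were not searched. The promoter table lists a pair of starts for Il33, each with 300 bases around the start. Capitals mark a STAT-type motif, TTC and GAA with 4 bases between them, and TATAAA, both searched on both strands. The first window lies at chr19:29924863-29925162 and the second at chr19:29945540-29945839, both on the plus strand.
Il33 start 1: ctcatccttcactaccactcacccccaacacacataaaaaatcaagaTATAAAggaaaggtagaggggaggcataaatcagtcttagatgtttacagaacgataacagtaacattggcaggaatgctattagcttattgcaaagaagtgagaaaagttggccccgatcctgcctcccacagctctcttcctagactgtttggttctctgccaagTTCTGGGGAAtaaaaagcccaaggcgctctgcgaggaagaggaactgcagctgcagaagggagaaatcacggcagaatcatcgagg
Il33 start 2: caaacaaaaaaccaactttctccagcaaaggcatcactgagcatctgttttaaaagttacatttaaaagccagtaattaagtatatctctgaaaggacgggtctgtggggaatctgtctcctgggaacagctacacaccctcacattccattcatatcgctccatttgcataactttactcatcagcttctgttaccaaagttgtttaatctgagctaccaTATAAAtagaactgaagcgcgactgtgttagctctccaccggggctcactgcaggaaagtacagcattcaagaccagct
In the first window the STAT-type motif was matched at bases -36 to -27 and TATAAA at bases -203 to -198, counted from the start. In the second, TATAAA was matched at bases -29 to -24 and the STAT-type motif was not matched. Of 32851 windows of this length, 6.95% held the STAT-type motif and 13.6% held TATAAA. The windows of Il4ra and Il13ra1 held neither. The same letters with 3 bases between them were also searched, and were matched in no window of the 6 genes and in 8.3% of all windows.

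Some facts of the whole series bear on these values. The authors normalized each tissue by itself, and no level is set across them. Each table had a lowest value, the floor, of 2.28 in colon and 2.32 in jejunum on the log2 scale, and 30.6% to 37.4% of probe sets stood within 0.01 of it. The targeted gene, Tnfsf12, read from a probe set it shares with a read-through transcript, had group means of 4.18 to 4.26 in WT colon and 2.49 to 2.58 in KO colon. In jejunum the means were 3.07 to 3.84 in WT and 2.50 to 2.59 in KO. By the names of the array files there were 2 batches, and in each tissue a single KO array, KO 0 h replicate 1, shared a batch with the WT arrays. Beyond those arrays genotype and batch cannot be told apart. By marker genes, 4 arrays stood apart and were chosen after the data were seen. Colon WT 0 h replicate 2 held transcripts of small intestine, squamous epithelium and pancreas, and colon KO 0 h replicate 3 had high p53 targets. Jejunum WT 24 h replicate 2 and KO 0 h replicate 3 held the ileal transcripts Fabp6, Slc10a2 and Fgf15.

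Detection decided how much of the axis could be followed. A gene was taken as above the floor in an array when its signal was at least 1 log2 unit above it. Il33, Il4ra and Il13ra1 met this in 28 of 28 arrays of each tissue, and Retnlb in 28 of 28 colon arrays. Il25 stood at the floor in all 28 arrays of both tissues. Tslp, the alarmin of stromal and epithelial cells, reached at most 2.47 in colon and 2.60 in jejunum and stood at the floor in 19 and 23 arrays. Il13 itself had no array above the margin. It had the same value of 2.30 in 23 colon arrays and of 2.56 in 20 jejunum arrays, with a highest signal of 2.52 and 2.92. Il13ra2 reached at most 2.71 in colon and 2.85 in jejunum. Retnlb stood at the floor in all 28 jejunum arrays. At this depth of signal, no change in Il13, Tslp, Il25 or Il13ra2 was detectable, which does not show that the transcripts were absent. Whole tissue was used, so fewer cells of a type and less RNA per cell cannot be told apart.

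**Figure D1:**
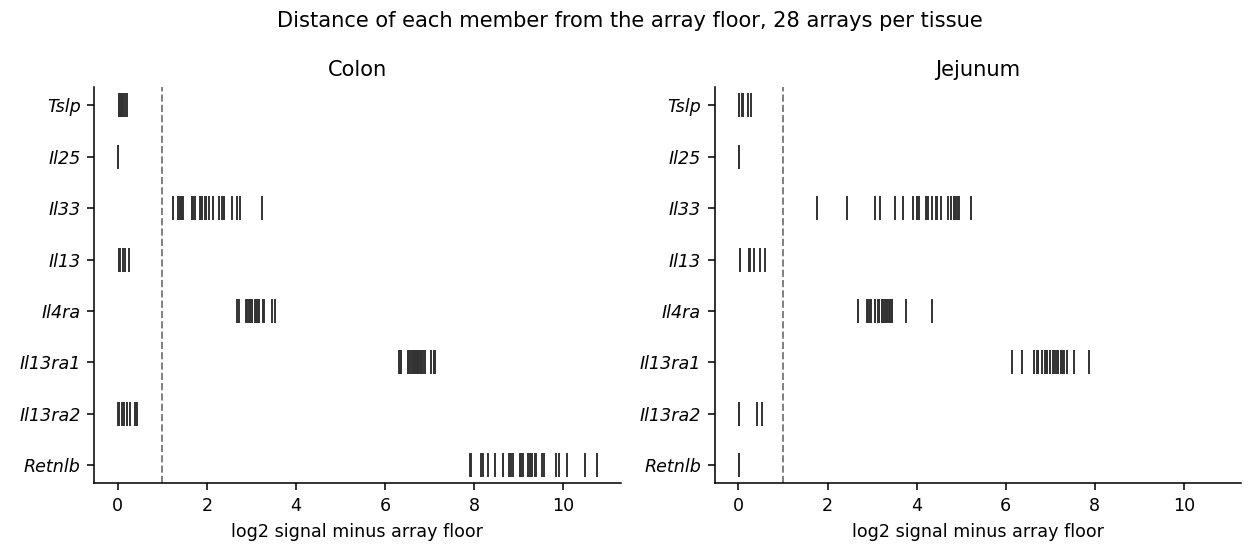
Log2 signal minus the array floor (horizontal axis) of each gene, 1 tick for each of 28 arrays, in colon (left) and jejunum (right), with a dashed line 1 log2 unit above the floor. Il33, Il4ra and Il13ra1 lie beyond the line in every array of both tissues, Retnlb only in colon, and Tslp, Il25, Il13 and Il13ra2 lie short of it throughout.

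Each gene was tested with limma over 13645 genes per tissue, with p-values adjusted by Benjamini and Hochberg over all of them, in 9 comparisons of 2 groups and 2 interactions per tissue. An interaction is the change since 0 h in KO less that in WT. The filter on low means passed 6 of the genes in colon and 5 in jejunum. Il13 and Il13ra2 passed it with signals near the floor. None of the genes tested was called at an adjusted p under 0.05 in any of the 22 comparisons, that is in 0 of 121 tests, and 15 of the 121 had an unadjusted p under 0.05. Among all genes, 0.022% to 5.29% were called in the 11 colon comparisons and 0.0% to 2.14% in the 11 jejunum comparisons. Of those not given with a value further on, the share called in colon was 1.48% for KO 6 h against 0 h, 0.469% for KO against WT at 24 h and 0.0293% for the interaction at 24 h. In jejunum it was 0.117% for KO 24 h against 6 h, 0.183% and 2.14% for KO against WT at 0 and 6 h, and 0.0% for each interaction. At an unadjusted p under 0.05, 5 of 44 tests of Il33, Il4ra, Il13ra1 and Retnlb passed in colon, where 12.5% of the tests of all genes did. In jejunum, 8 of 33 tests of Il33, Il4ra and Il13ra1 passed, beside 10.8% of those of all genes. Comparisons within a tissue share groups, so these tests are not independent. In simulated arrays, a change of 1 log2 unit was called in 90% of changed genes in colon and in 82% in jejunum for WT 6 h against 0 h, and one of 0.5 in 64% and 36%. The changed genes were drawn at random with normal noise, and no differences of batch or dissection were simulated. These shares are therefore not those of the genes of the axis. In jejunum, Il33 differed by 1.31 ± 0.419 between KO and WT at 24 h and was not called.

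**Figure D2:**
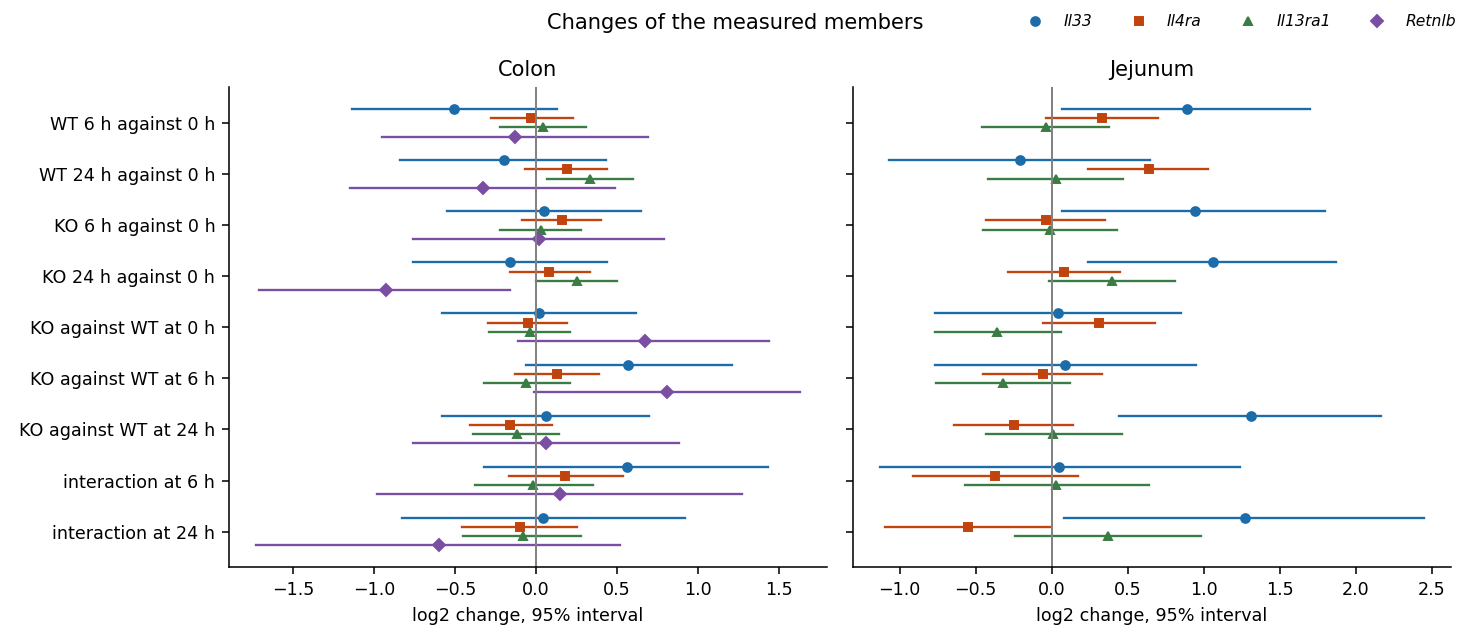
Log2 change (horizontal axis) with its 95% interval from limma for Il33, Il4ra, Il13ra1 and, in colon, Retnlb, in each listed comparison. In jejunum the Il33 intervals for WT 6 h, KO 6 h and KO 24 h against 0 h and for KO against WT at 24 h lie above 0 before adjustment. So does that of the Il33 interaction at 24 h (0.08 to 2.45), and no adjusted p is under 0.05.

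Il33 was the only alarmin above the floor, and in jejunum it had higher means at 6 h than at 0 h in both genotypes, without passing the test. In WT jejunum at 0 h the signals were 5.49, 5.38, 6.33, 6.66 and 6.23, and at 6 h they were 7.01, 6.38, 7.09, 6.77 and 7.27. The groups overlapped, since the 6 h array at 6.38 lay below the 0 h array at 6.66. The difference was 0.89 ± 0.395 (SE; 1.85-fold, 95% interval 0.07 to 1.70, adjusted p = 0.499, limma), where 0.432% of all genes were called. In KO jejunum the 0 h signals were 6.00, 6.76, 4.09, 6.58 and 6.86, and the 6 h signals were 7.08, 7.21, 6.52 and 7.18. Only the 6 h array at 6.52 lay within the range of the 0 h arrays. The difference was 0.94 ± 0.419 (1.91-fold, adjusted p = 0.354, limma), beside 0.66% of all genes called, and it was 0.44 (adjusted p = 0.435) without the arrays that stood apart. KO and WT differed by 0.04 ± 0.395 at 0 h and by 0.09 ± 0.419 at 6 h (95% interval -0.77 to 0.95, adjusted p = 0.962), and the interaction at 6 h was 0.05 ± 0.576 (95% interval -1.13 to 1.24, adjusted p = 0.998, limma). Without KO 0 h replicate 3, the array at 4.09, the genotypes differed by 0.53 at 0 h and the interaction was -0.44 (adjusted p = 0.938), so its direction turned.

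At 24 h the Il33 signals of the genotypes in jejunum lay apart, though the difference did not pass the test. The 4 WT signals at 24 h were 6.34, 4.75, 5.82 and 6.32, and the 5 KO signals were 7.25, 7.16, 7.54, 6.54 and 7.09. Every KO array lay above every WT array, as was the case in either direction for 5.38% of all genes in this comparison. KO exceeded WT by 1.31 ± 0.419 (2.47-fold, 95% interval 0.44 to 2.17, adjusted p = 0.187, limma), where 0.704% of all genes were called. Without the WT array at 4.75, which held ileal transcripts, it was 0.95 ± 0.428 (adjusted p = 0.315). With batch as a term, which rests on 1 KO array, it was 1.23 ± 0.832 (adjusted p = 0.686). Within WT, Il33 at 24 h lay below all 6 h values, by a mean of -1.10 ± 0.419 (adjusted p = 0.240, limma), where 3.7% of all genes had groups that did not overlap and 0.755% were called. The nearest arrays were at 6.34 and 6.38. The WT mean at 24 h was 5.81 with the array at 4.75 and 6.16 without it, beside 6.90 at 6 h. In KO the 24 h signals were above the 0 h mean by 1.06 ± 0.395 (2.08-fold, adjusted p = 0.240), and by 0.56 (adjusted p = 0.390) without the arrays that stood apart. The interaction at 24 h was 1.27 ± 0.576 (adjusted p = 0.931, limma), and 0.77 (adjusted p = 1.0) without KO 0 h replicate 3.

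**Figure D3:**
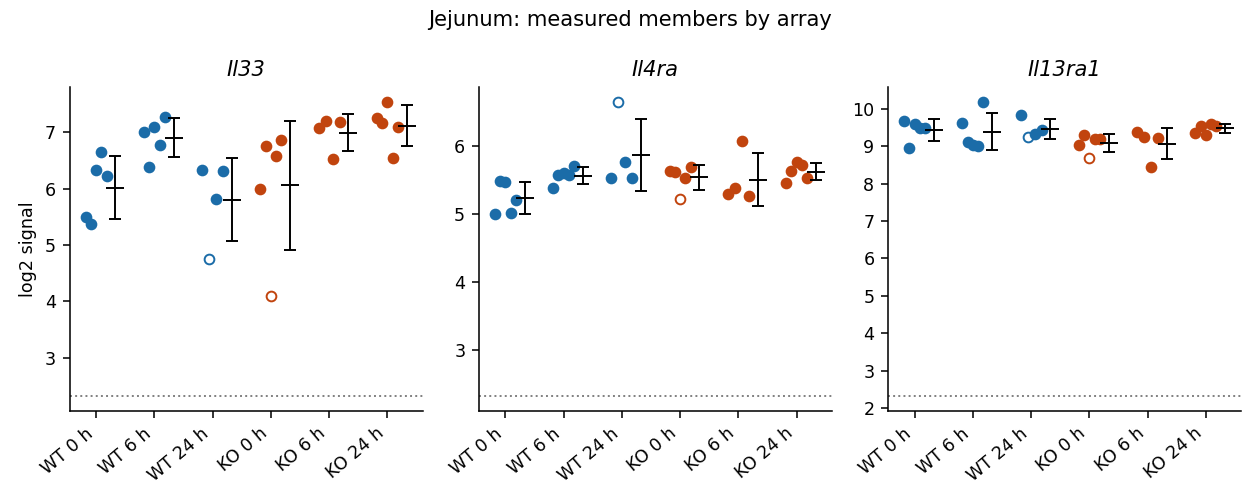
Log2 signal (vertical axis) of Il33, Il4ra and Il13ra1 in each jejunum array by genotype and time; bars are means ± SD, open circles are the arrays that stood apart and the dotted line is the floor. Il33 lies between 6.54 and 7.54 in KO arrays at 24 h and between 4.75 and 6.34 in WT arrays.

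The jejunum pieces differed in markers of position along the small intestine, and the lowest Il33 signals, 4.09 and 4.75, were those of the KO 0 h and WT 24 h arrays with ileal transcripts, where Fabp6, an ileal bile acid binding protein, stood at 15.33 and 15.28. In the other 26 arrays Il33 lay between 5.38 and 7.54. Slc40a1, the iron exporter of proximal enterocytes, was at 9.84 to 12.06 in 17 arrays and at 3.80 to 7.33 in 11. Among the arrays with high Slc40a1, the 24 h signals of Il33 were 6.54 and 7.09 in KO and 6.34, 5.82 and 6.32 in WT. All 4 KO 6 h arrays had low Slc40a1, and the KO 0 h arrays with low Slc40a1 had Il33 at 6.00 and 4.09. A score of 4 proximal minus 3 distal markers, chosen after the data were seen, had a Pearson r of 0.39 with Il33 over 28 arrays and of -0.35 over 26 arrays without the arrays that stood apart. With that score as a term in the fit, Il33 was past the test for KO 6 h against 0 h (1.29 ± 0.308, adjusted p = 0.0368) and for KO against WT at 24 h (1.17 ± 0.301, adjusted p = 0.0469, limma), where that fit called 1.26% and 1.55% of all genes. Both calls were lost when the arrays that stood apart were also left out (0.57, adjusted p = 0.790, and 1.00, adjusted p = 0.0945).

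**Figure D4:**
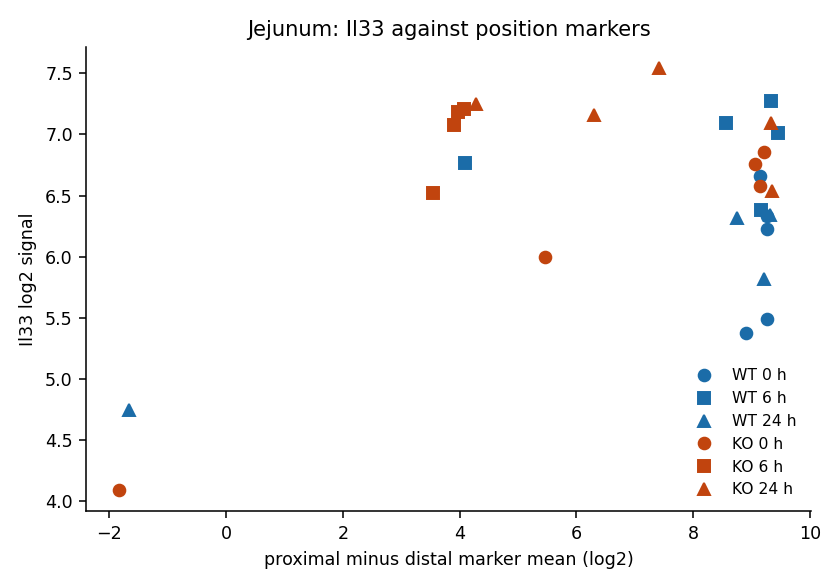
Il33 log2 signal (vertical axis) in jejunum against the mean of 4 proximal markers minus the mean of 3 distal markers (log2, horizontal axis), 1 point per array, coloured by genotype and shaped by time. The WT 24 h array at 4.75 and the KO 0 h array at 4.09 lie alone at the distal end, with scores of -1.66 and -1.83.

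Markers of other cells had ranges that overlapped between the 24 h groups of jejunum. The mean of 8 exocrine pancreas genes ranged from 3.73 to 13.68 in WT 24 h arrays and from 4.07 to 9.77 in KO 24 h arrays. Over 28 arrays it had an r of -0.23 with Il33, and of -0.65 without the arrays that stood apart. Among the means of 20 lists, r with Il33 ran from -0.63 for large intestine genes to 0.67 for IL-4 and IL-13 signalling genes (-0.59 and 0.59 without those arrays), and for epithelial genes it was -0.09 and 0.54. The mean of 8 endothelial genes, a cell type that makes IL-33, ranged from 3.72 to 4.04 in WT and from 3.92 to 4.28 in KO at 24 h. That of 11 fibroblast and matrix genes ranged from 6.67 to 7.70 in WT and from 6.95 to 7.84 in KO. The part of these cells in the Il33 difference was not tested.

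In colon the Il33 signals ran from 3.51 to 5.52, and no comparison passed the test. The WT arrays ranged from 3.73 to 5.52 at 0 h, from 3.62 to 4.16 at 6 h and from 3.68 to 4.83 at 24 h. The KO arrays ranged from 3.94 to 5.01, from 3.96 to 4.95 and from 3.51 to 4.66. All of these ranges overlapped, and the highest signal was that of the WT 0 h array with transcripts of other tissues. WT at 6 h lay below 0 h by a mean of -0.51 ± 0.310 (adjusted p = 0.482, limma, 2.18% of all genes called), and by -0.22 (adjusted p = 0.779) without that array. KO exceeded WT at 6 h by 0.57 ± 0.310 (adjusted p = 0.462, 0.879% called). Fibroblast and matrix genes, from cells that can make IL-33, were called higher in KO than in WT colon for 8 of 11 genes at 0 h and 5 of 11 at 24 h, where Il33 differed by 0.02 ± 0.292 and 0.06 ± 0.310. In order of mean the groups were KO 6 h, KO 0 h, WT 0 h, KO 24 h, WT 24 h and WT 6 h, and no group differed from the next by more than the larger of their SDs. In none of the 9 comparisons of 2 groups in colon did any of the genes have groups that did not overlap. Among all genes this share was 5.24% for WT 6 h and 5.17% for WT 24 h against 0 h, and 6.17% for WT 24 h against 6 h. In KO the shares for the same comparisons were 3.53%, 1.17% and 4.63%, and for KO against WT they were 3.42%, 6.98% and 3.14% at 0, 6 and 24 h. In jejunum there were 4 such cases, each described with its gene. In the other 5 comparisons of jejunum no gene of the axis had such groups, beside 1.3% of all genes for WT 6 h against 0 h, 4.1% for KO 6 h against 0 h, 7.1% for KO 24 h against 6 h, and 1.85% and 6.72% for KO against WT at 0 and 6 h.

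Il4ra, the signalling chain shared by the receptors of IL-4 and IL-13, had values in all arrays, and its largest difference was in WT jejunum. In WT jejunum at 0 h its signals were 5.0, 5.48, 5.47, 5.01 and 5.21, and at 24 h they were 5.53, 6.65, 5.77 and 5.53. All 24 h arrays lay above all 0 h arrays, and 5.91% of all genes had groups that did not overlap in either direction. The difference was 0.64 ± 0.191 (1.55-fold, 95% interval 0.24 to 1.03, adjusted p = 0.0943, limma, 1.4% of all genes called). It was 0.38 ± 0.158 (adjusted p = 0.269) without the arrays that stood apart, of which the 24 h array at 6.65 was one. A second Il4ra probe set, with a mean of 4.14, had a difference of -0.07 ± 0.218, so the probe sets did not move alike. In KO jejunum the 24 h arrays differed from 0 h by 0.08 ± 0.180 (adjusted p = 0.918), and the interaction was -0.55 ± 0.262 (adjusted p = 0.931, limma), or -0.30 without the WT 24 h array at 6.65. In colon the signals of Il4ra lay between 4.94 and 5.80, and the largest difference in size was 0.21 ± 0.131 for WT 24 h against 6 h (adjusted p = 0.739, limma, 0.242% called).

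Il13ra1, the chain that binds IL-13 with Il4ra, had values in all arrays, at 8.58 to 9.40 in colon and 8.45 to 10.19 in jejunum. In WT colon its signals were 9.01, 8.78, 9.04, 8.61 and 9.0 at 0 h and 8.95, 9.17, 9.38 and 9.40 at 24 h. The groups overlapped through the 24 h array at 8.95, and 24 h exceeded 0 h by 0.33 ± 0.129 (1.26-fold, adjusted p = 0.131, limma, 5.29% of all genes called). In KO colon the difference was 0.25 ± 0.122 (adjusted p = 0.624, 0.183% called), and 0.37 (adjusted p = 0.135) without the arrays that stood apart. Across the 4 colon probe sets above the floor, the WT difference at 24 h was 0.15, 0.33, 0.43 and 0.43. In KO jejunum, where another probe set had the highest mean, every 24 h array (9.31 to 9.61) lay above every 0 h array (8.69 to 9.30), as was so in either direction for 4.46% of all genes. The difference was 0.40 ± 0.202 (adjusted p = 0.424, limma, 0.689% called), and 0.12, 0.14 and 0.17 for the other probe sets above the floor. In WT jejunum it was 0.03 ± 0.214 (adjusted p = 0.986).

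**Figure D5:**
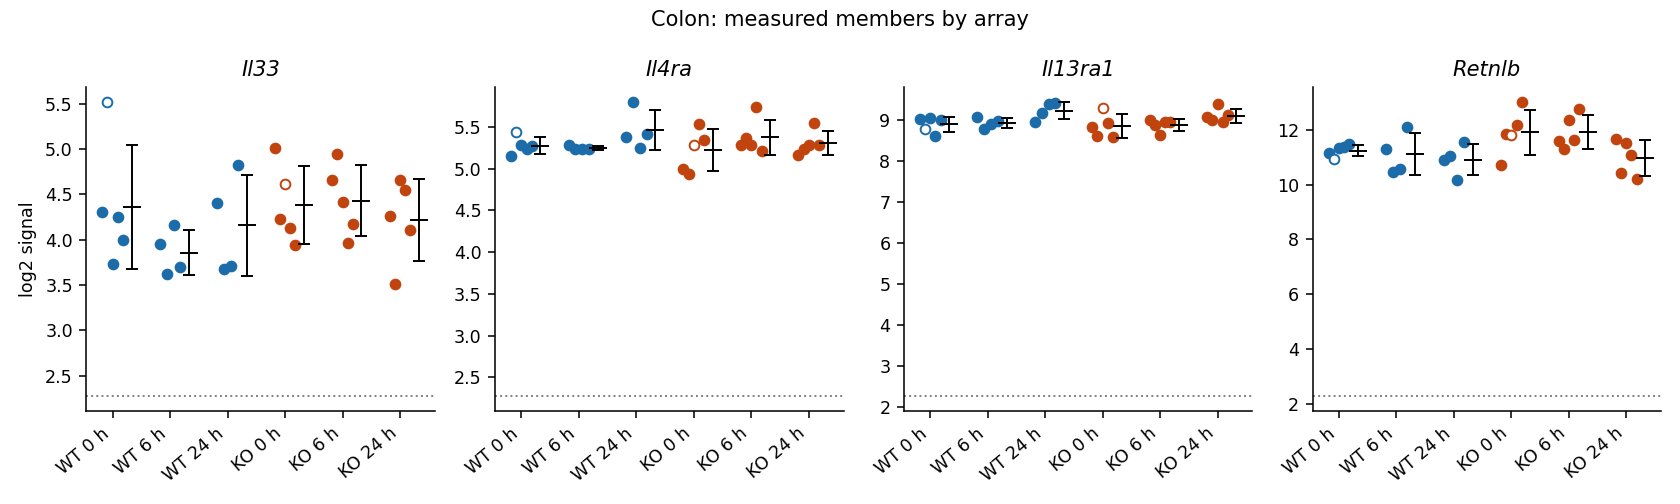
Log2 signal (vertical axis) of Il33, Il4ra, Il13ra1 and Retnlb in each colon array by genotype and time; bars are means ± SD, open circles are the arrays that stood apart and the dotted line is the floor. Ranges of all groups overlap for each gene, and Retnlb has its highest signals, up to 13.02, in KO arrays at 0 and 6 h.

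Retnlb, the goblet cell effector of the axis, had values far above the floor in colon and was at the floor in jejunum. In WT colon its signals were 11.15, 10.92, 11.33, 11.36 and 11.47 at 0 h, 11.31, 10.47, 10.58 and 12.10 at 6 h, and 10.91, 11.05, 10.17 and 11.54 at 24 h. In KO colon they were 10.73, 11.84, 11.80, 12.17 and 13.02 at 0 h, 11.58, 11.30, 12.35, 11.63 and 12.77 at 6 h, and 11.66, 10.43, 11.52, 11.09 and 10.20 at 24 h. The KO arrays at 0 and 6 h reached above all WT arrays but overlapped with them. KO at 24 h lay below KO at 0 h by a mean of -0.93 ± 0.375 (0.523-fold, adjusted p = 0.473, limma) and below KO at 6 h by -0.95 ± 0.375 (adjusted p = 0.209, 1.29% of all genes called). In WT the difference from 0 to 24 h was -0.33 ± 0.398 (adjusted p = 0.713), and the interaction was -0.60 ± 0.547 (adjusted p = 0.793, limma). Without WT 24 h replicate 3 the WT difference was -0.08, and without KO 0 h replicate 5 the interaction was -0.33. KO exceeded WT by 0.67 ± 0.375 at 0 h (adjusted p = 0.385, 2.07% called; 0.39 without KO 0 h replicate 5) and by 0.81 ± 0.398 at 6 h (adjusted p = 0.404). With batch as a term these were -0.51 ± 0.594 and -0.66 ± 0.707, so the direction turned, with errors larger than the values.

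Goblet cell genes, 10 of 10 of them tested, had no call in either tissue. The mean of 10 goblet cell genes, among them Muc2, ran from 12.49 to 13.14 over all colon arrays. In jejunum, where Retnlb was at the floor, it ran from 10.76 to 12.62. Skeletal muscle genes were higher in KO 6 h colon arrays (means of 10 genes from 5.03 to 6.79) than in KO 0 h (3.26 to 3.66) and KO 24 h arrays (3.22 to 4.56), and 9 of 10 of them were called higher in KO at 6 h than at 0 h. The part of this in the Retnlb values was not tested.

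The genes above the floor had no strong correlation with each other. Over 28 arrays, the Pearson r between pairs of them lay between -0.29 and 0.20 in colon and between -0.19 and 0.33 in jejunum. Without the arrays that stood apart, r lay between -0.36 and 0.24 in colon and between -0.34 and 0.15 in jejunum. The genes whose pattern was most like Il33 in jejunum were Ckmt1 (r of 0.85), a mitochondrial creatine kinase, Nudt5 (0.84) and Slc36a1 (0.82). Without the arrays that stood apart these were 0.64, 0.67 and 0.61. For Il13ra1 in jejunum they were Oasl1 (0.87), Oma1 (0.84) and Ifi35 (0.83), of which Oasl1 and Ifi35 are interferon-induced, and the values were 0.85, 0.82 and 0.80 without those arrays. The jejunum array with the highest Il13ra1, at 10.19, was a WT 6 h array, and Oasl1 reached 10.35 in that group against 8.31 at the median. For Il4ra in jejunum they were Rgs1 (0.78), Gpr137b (0.76) and Fam107a (0.76), which were at 0.53 to 0.56 without the arrays that stood apart. Gpr137b was above the floor margin in 0 of 28 arrays and Fam107a in 3. In colon, Il13ra1 was most like the mast cell chymase Cma1 (0.74), Ifitm3 (0.73) and Gbp7 (0.71), which were at 0.69 to 0.71 without the arrays that stood apart. Retnlb was most like Ccr7 (0.68), Ang4 (0.66), an antibacterial protein of the gut epithelium, and Mptx1 (0.64), though Ccr7 lay near the floor at 2.28 to 3.23. For Il4ra in colon they were Efhd2 (0.71), Dmgdh (0.71) and Bmpr1b (0.67), of which Dmgdh and Bmpr1b lay near the floor. For Il33 in colon they were Ppp1r3e (0.66), Esr1 (0.63) and Prxl2b (0.63), which were at 0.40 to 0.51 without the arrays that stood apart. These are descriptions over arrays that share groups, batches and dissection.

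The wider pathway was read from 8 lists of genes, chosen with earlier results of these data known. In colon, 9 of 10 alarmin receptor and signalling genes were tested, and 1 passed: Myd88, the adaptor of the IL-33 receptor, was 0.37 ± 0.0902 higher in WT at 24 h than at 0 h (adjusted p = 0.0174, limma), a comparison with 5.29% of all genes called. Its signals were 6.77 to 7.14 at 0 h and 7.18 to 7.66 at 24 h, so the groups did not overlap. Without WT 24 h replicate 2 the difference was 0.26 (adjusted p = 0.087). Of the tuft cell list (10 of 17 tested), Avil was higher in WT at 24 h by 0.39 ± 0.110 (adjusted p = 0.0363), a call lost without WT 0 h replicate 1 (0.33) or 4 (0.35) or WT 24 h replicate 2 (0.32) or 3 (0.34). Of the list for innate lymphoid cells of group 2 and T helper 2 cells (8 of 15 tested), Hs3st1 was higher in WT at 24 h by 0.84 ± 0.201 (adjusted p = 0.0153; 0.75 and 0.0685 without WT 24 h replicate 3), and Rora was higher in KO than WT at 0 h by 0.58 ± 0.120 (adjusted p = 0.0123), which with batch as a term was 0.61 (adjusted p = 0.648). A fit of only the groups compared ended the calls of Myd88 (adjusted p = 0.24), Avil (0.263) and Hs3st1 (0.183), and with each probe set as a feature that of Avil was lost too (0.0687). None of 12 tested IL-4 and IL-13 signalling genes, 11 type 2 effector genes, 10 goblet cell genes or 1 eosinophil gene was called in colon. The list medians in these comparisons lay between -0.01 and 0.12 for WT 24 h against 0 h, beside 0.01 for all genes.

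Mast cells respond to IL-33, and genes of their proteases were called in both tissues. Cma1 was called higher at 24 h in colon, in WT than at 0 h and in KO than at 6 h. In jejunum, Mcpt1 and Mcpt2 were called lower at 24 h than at 0 h in KO only, though their signals were also lower in WT. In colon, 4 of 11 mast cell genes were tested, and Cma1 rose by 1.96 ± 0.454 in WT from 0 to 24 h (adjusted p = 0.0121, limma). Only 1 of 5 WT arrays at 0 h was above the floor margin, so the size of this change is uncertain. Its signals were 2.89 to 3.47 at 0 h, 3.31 to 4.42 at 6 h and 4.73 to 6.04 at 24 h, and the 24 h arrays lay above all the others. Without WT 24 h replicate 5 the rise was 1.64 (adjusted p = 0.0565). In KO colon Cma1 was at 2.92 to 3.54 at 6 h and 4.23 to 6.46 at 24 h, a difference of 1.80 ± 0.428 (adjusted p = 0.0367). At 0 h the KO arrays ranged from 2.28 to 5.30, with a median of 2.75, and 1 of 5 was above the floor margin. At 24 h, 5 of 5 were above it. The KO groups at 0 and 24 h overlapped through that 1 array, and the comparison was not called. The call for KO 24 h against 6 h was kept in 7 of 19 alternatives (adjusted p of 0.00542 to 0.0954, changes of 1.44 to 2.00). In KO jejunum, where 6 of 11 were tested, Mcpt1 fell by 1.90 ± 0.457 on the log2 scale (adjusted p = 0.0485) and Mcpt2 fell by 1.33 ± 0.319 (adjusted p = 0.0475) from 0 to 24 h. The Mcpt1 signals were 3.43 to 6.30 at 0 h and 2.32 to 4.30 at 24 h, and those of Mcpt2 2.91 to 5.39 and 2.71 to 2.97. At 24 h, 1 of 5 KO arrays was above the floor margin for Mcpt1 and 0 of 5 for Mcpt2, so these differences are not exact. With the margin of 3.32 in place of the 24 h signals, the Mcpt2 mean at 0 h, 4.17, was 1.8-fold higher. That figure leaves out the spread between arrays, and 4 of 5 KO arrays at 0 h were above the margin. It is therefore not a lower limit of the change. Over all alternatives, Mcpt1 was past the test in 9 of 21 (adjusted p of 0.0126 to 0.164) and Mcpt2 in 8 of 21 (0.00626 to 0.178), and both calls were lost with the replicate block (0.051 and 0.0606) and with no filter (0.0918 and 0.0892). In WT jejunum, with no call, Mcpt1 was at 3.43 to 4.83 at 0 h and 2.32 to 2.96 at 24 h. Mcpt2 was at 2.92 to 4.29 and 2.33 to 2.69 there. For neither gene did these WT groups overlap, as was so in either direction for 5.91% of all genes. At 24 h, 0 of 4 WT arrays were above the floor margin for either gene. Of 11 mast cell genes, 2 in colon and 3 in jejunum reached 1 log2 unit above the floor in any array.

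Of the IL-4 and IL-13 signalling list in jejunum (11 of 17 tested), Socs3, an inhibitor of cytokine signalling through STAT proteins, was called higher in KO at 24 h. Its signals were 8.40 to 9.84 there, against 6.66 to 8.62 in KO at 0 h and 7.15 to 7.98 in WT at 24 h. Without a call, its mean was also higher in KO than WT at 0 h (7.80 and 7.19) and at 6 h (8.55 and 7.34). The 6 h signals, 8.26 to 9.24 in KO and 7.02 to 7.74 in WT, did not overlap, as for 6.72% of all genes. KO exceeded WT at 24 h by 1.72 ± 0.364 (adjusted p = 0.0211, limma), with no overlap, and without the arrays that stood apart by 1.85 (adjusted p = 0.00627). With batch as a term it was 1.16 (adjusted p = 0.633), and it was past the test in 14 of 21 alternatives. From 0 to 24 h in KO it rose by 1.52 ± 0.344 (adjusted p = 0.0328), and by 1.24 (adjusted p = 0.0999) without the arrays that stood apart, which ends the call, and it was past the test in 9 of 22 alternatives (1.24 to 1.75, adjusted p of 0.0137 to 0.118). Stat5a was lower in KO than WT at 6 h by a mean of -0.28 ± 0.0737 (adjusted p = 0.0427), within 1 log2 unit of the floor, and was past the test in 4 of 20 alternatives (-0.36 to -0.14, adjusted p of 0.00258 to 0.717). The medians of this list were 0.01 for KO 24 h against 0 h and 0.04 for KO against WT at 24 h, beside -0.01 and 0.02 for all genes. None of 9 alarmin receptor genes, 10 type 2 effector genes, 12 tuft cell genes, 10 goblet cell genes, 9 genes of innate lymphoid cells and T helper 2 cells or 2 eosinophil genes was called in jejunum.

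The radiation response itself was present in the same arrays. Of 17 p53 targets tested in colon, 16 rose in WT at 6 h, with a median of 1.69 beside 0.00 for all genes, and 14 in KO. In jejunum 10 of 18 rose in WT and 8 of 18 in KO at 6 h. At 24 h the counts were 15 in WT and 10 in KO colon, and 11 in WT and 7 in KO jejunum. The KO 0 h colon group held an array with a mean of the list at 7.89, against a range of 6.37 to 6.47 in WT at 0 h. Without the arrays that stood apart, the colon counts were 17 in WT and 15 in KO at 6 h, and 15 and 14 at 24 h. None of the genes of the axis that were tested, 6 in colon and 5 in jejunum, passed the same test in any of those comparisons. Of 10 tested NF-kB and inflammatory genes in colon, 1 was called: Il18, another cytokine of the gut epithelium, was lower in KO than in WT at 6 h by a mean of -0.84 ± 0.181 (adjusted p = 0.0206, limma). Macrophage, endothelial, epithelial and exocrine pancreas genes had no call in either tissue. Of other markers in colon, Cps1, an enzyme of small intestine enterocytes, was lower in WT at 24 h than at 0 h (-2.75 ± 0.579, adjusted p = 0.00628, limma), where the WT 0 h group held the array with transcripts of other tissues.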

How the data were processed

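Expression was measured on 56 Affymetrix mouse arrays, 28 per tissue, each from a different mouse per the labels' design text, in 12 groups taken from the labels. RNA came from whole tissue by TRIzol and a column, per the labels' protocols. The authors deposited log2 signals for 45101 probe sets, and GCRMA and RMA are named in the submitters' processing notes, with no version or role. Values of 55 arrays were identical in the tissue tables and the value table. A single colon column matched no sample and was not used, so KO colon 24 h replicate 3 was read from the value table, with its batch by elimination.

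Genes were represented by the highest-mean probe set among the 34958 annotated to 1 gene, and the lowest 25% by mean were not tested. The 6 group means of a tissue were estimated with limma 3.58.1 (R 4.3.3, lmFit, eBayes with trend, two-sided tests, Benjamini and Hochberg adjustment within a comparison, threshold 0.05). Changes are differences of group means ± SE. Simulated data with known changes tested the fit, which made 12 false calls in colon and 9 in jejunum. The members and the gene lists were chosen with earlier results of these data known. Named genes were the listed genes, the 3 of highest Pearson r with each gene above the floor, and at most 4 called genes per list and comparison by size of change. Alternatives were other filters, probe sets, variance models and groups in the fit, renewed quantile normalization, batch, the replicate block, each array left out and other detection margins. Leaving out the arrays that stood apart and a position term, each alone and both together, were chosen after the data were seen.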

Additional observations from a re-analysis of the deposited data

Results flagged for a closer look

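Dixon's test was applied to the measured genes, 4 in colon and 3 in jejunum, in each of the 6 groups of 4 or 5 arrays per tissue. In 3 cases an array lay far from the others. Chance alone flags about 1 in 20 groups, so a few flags are due without any cause. Genes at or near the floor were not examined. In WT colon at 6 h, Il4ra was at 5.28 in replicate 1 and at 5.24 in the other arrays, a group with an SD of 0.0235. In KO jejunum at 6 h, Il4ra was at 6.08 in replicate 4 and between 5.26 and 5.38 in the others. In WT jejunum at 0 h, Il13ra1 was at 8.95 in replicate 2 and between 9.48 and 9.68 in the others.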

How the results depend on the processing

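In each of the 22 comparisons 0 of the genes were called, and this held in all 2486 refits of single changes under the alternatives planned: no filter, a stricter filter, each probe set as a feature, the other variance models, only the groups compared, renewed quantile normalization, batch as a term, the replicate block and each array left out in turn, where the counts ran from 0 to 0. The refits use the same arrays and include genes at or near the floor, which could hardly be called. Of the 121 main tests, 77 were of genes above the floor. Among 231 refits added after the data were seen, 2 gave a call, so that the count became 1 for KO 6 h against 0 h and 1 for KO against WT at 24 h in jejunum with position as a term. These were Il33 at 1.29 and 1.17, and with the arrays that stood apart also left out both counts were 0. The replicate numbers did not pair the arrays: arrays of the same number in different groups had deviations with a median r of 0.01 in both tissues (65 pairs each, -0.26 to 0.32 in colon and -0.60 to 0.47 in jejunum). With the replicate block the count was 0, and Il33 in KO against WT at 24 h in jejunum was 1.23 (adjusted p = 0.246). With 1 array left out, that difference ran from 0.95 to 1.48, lowest without WT 24 h replicate 2, and the KO difference of Il33 from 0 to 24 h from 0.56 to 1.26, lowest without KO 0 h replicate 3. With a margin of 0.5 log2 units above the floor, Il13 and Il13ra2 each had 1 jejunum array above it, and with 1.5 Il33 had 22 of 28 colon arrays above it.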
